A study of Mus musculus with 81 samples.

Results

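The 10 genes described here encode the core of the mouse major histocompatibility complex (MHC) class I presentation pathway, namely the class I heavy chains H2-K1, H2-D1, H2-Q4 and H2-T23, their light chain B2m, the peptide transporter Tap1 and Tap2, its partner Tapbp, and the immunoproteasome subunits Psmb8 and Psmb9. They were chosen by name, by a rule that uses no measured value but was set with earlier results of these data known, and all 10 were measured among the 55536, 20801 and 24500 genes of the 3 RNA tables of the series. The RNA came from hippocampal area CA1 of male C57BL/6J mice of about 9 to 12 weeks of age. In the depletion experiment, 3 mice each received an shRNA against H2afy (shH2afy), which encodes the histone variant mH2A1, an shRNA against H2afy2 (shH2afy2), which encodes mH2A2, or a scrambled shRNA (shScr), all left in the home cage. In the training experiment, mice labelled shH2afy and mice labelled shScr were either trained in contextual fear conditioning 1 h before collection or left untrained (3 mice in each of the 4 groups). Intact mice, without virus, were trained 1 h before collection (2 mice) or left untrained (3 mice). The shRNAs were driven by a U6 promoter in an AAV-DJ vector that also carried CMV-driven GFP, were injected into dorsal CA1 of grown mice, and the infected tissue was taken at least 2 weeks later, so that every virus group, shScr included, had undergone surgery and infection. Each library was 1 mouse, and the tissue was bulk, in which fewer cells of a type and less RNA per cell cannot be told apart. Chromatin was measured in trained and untrained mice whose labels name no virus, as lists of broad domains of mH2A1 and mH2A2 (30 ChIP libraries). Mouse numbers of the 6 h ChIP samples recur among the RNA samples of the training experiment, and they were taken as different mice because the labelled treatments differ.

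Class I molecules display peptides from inside the cell to CD8+ T cells and natural killer cells. Proteins are cut by the proteasome, whose catalytic subunits are exchanged for Psmb8, Psmb9 and Psmb10 in the immunoproteasome, and the peptides are pumped into the endoplasmic reticulum by the Tap1-Tap2 transporter, where tapasin (Tapbp) holds an empty heavy chain with B2m until a peptide binds. In the brain the pathway is low at rest in neurons and higher in microglia and endothelium, it is raised by interferons through IRF1 and the class I transactivator NLRC5, and class I proteins of neurons are also known for roles at synapses.

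In mm10, 9 of the 10 genes lie on chromosome 17, in the MHC, and B2m lies on chromosome 2, at 122147686-122153083 on the plus strand. From the proximal end the MHC genes are Tapbp (17:33915899-33929292, plus strand), H2-K1 (17:33996017-34000347, minus), Psmb9 (17:34181987-34187764, minus), Tap1 (17:34187553-34197225, plus), Psmb8 (17:34197721-34201454, plus), Tap2 (17:34203527-34216321, plus), H2-D1 (17:35262730-35267499, plus), H2-Q4 (17:35379617-35385290, plus) and H2-T23 (17:36029773-36032855, minus). Psmb9, Tap1, Psmb8 and Tap2 are neighbours. Psmb9 and Tap1 are read away from each other, with RefSeq starts 226 bases apart, and their 300-base promoter windows share 275 bases (17:34187306-34187580). The annotated bounds of these genes overlap, and the strand setting of the counting is not given in the sources used here, so reads of the overlap cannot be assigned. The class I heavy chains are near-identical in long stretches, and how reads that fit several of them were counted is not given either, so the split of counts among H2-K1, H2-D1, H2-Q4 and H2-T23 is uncertain.

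Promoter sequences are shown because the members changed together in the RNA, and because interferon and NF-kappaB signals are known to act through elements of this kind. RefSeq promoters (GRCm38.p6) were found for 9 of the 10 members, Tap2 having no entry. The window of each, 250 bases before to 50 after the start, was searched on both strands for an ISRE-like word (GAAA, any 2 bases, GAAA), for a GAS word (TTCNNNGAA) and for a kappaB word (GGGGA followed directly by TTCCC, or GGGA, any base and TTTCC). The ISRE-like word stood in 2 of the 9 members and in 3.44% of 32851 promoters, the GAS word in 1 member and in 8.3% of promoters, and the kappaB word in 3 members and in 0.517% of promoters. The 250 bases before the start are printed 5′ to 3′ on the gene's strand, with the words found in capitals. Each word is a match of letters and was not tested as a binding site.
H2-K1 (17:34000348-34000597, minus strand, kappaB): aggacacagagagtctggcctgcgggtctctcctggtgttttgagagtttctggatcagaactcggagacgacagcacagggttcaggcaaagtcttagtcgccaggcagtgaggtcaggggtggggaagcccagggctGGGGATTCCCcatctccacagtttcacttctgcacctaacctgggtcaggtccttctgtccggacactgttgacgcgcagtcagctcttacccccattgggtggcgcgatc
H2-D1 (17:35262844-35263093, plus strand, kappaB): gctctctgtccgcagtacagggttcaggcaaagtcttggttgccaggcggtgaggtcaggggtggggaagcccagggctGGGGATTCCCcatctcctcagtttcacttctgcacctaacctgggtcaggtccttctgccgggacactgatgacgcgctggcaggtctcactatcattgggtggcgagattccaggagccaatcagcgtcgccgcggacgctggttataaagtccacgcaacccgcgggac
H2-Q4 (17:35379367-35379616, plus strand, no word): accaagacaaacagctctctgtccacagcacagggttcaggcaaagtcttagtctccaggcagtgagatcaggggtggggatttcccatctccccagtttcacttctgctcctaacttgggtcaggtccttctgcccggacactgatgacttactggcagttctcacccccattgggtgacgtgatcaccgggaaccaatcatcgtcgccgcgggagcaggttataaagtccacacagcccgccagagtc
B2m (2:122147437-122147686, plus strand, ISRE-like, then kappaB read on the other strand): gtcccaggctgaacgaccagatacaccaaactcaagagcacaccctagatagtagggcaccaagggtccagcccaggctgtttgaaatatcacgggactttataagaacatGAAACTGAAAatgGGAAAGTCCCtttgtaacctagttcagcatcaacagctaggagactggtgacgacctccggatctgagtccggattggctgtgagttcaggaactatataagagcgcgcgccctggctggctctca
H2-T23 (17:36032702-36032951, minus strand, ISRE-like read on the other strand): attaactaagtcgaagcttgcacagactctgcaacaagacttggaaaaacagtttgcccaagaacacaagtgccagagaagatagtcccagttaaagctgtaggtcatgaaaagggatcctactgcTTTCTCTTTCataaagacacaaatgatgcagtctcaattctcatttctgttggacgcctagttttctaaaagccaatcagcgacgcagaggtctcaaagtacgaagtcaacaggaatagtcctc
Psmb8 (17:34197945-34198194, plus strand, GAS): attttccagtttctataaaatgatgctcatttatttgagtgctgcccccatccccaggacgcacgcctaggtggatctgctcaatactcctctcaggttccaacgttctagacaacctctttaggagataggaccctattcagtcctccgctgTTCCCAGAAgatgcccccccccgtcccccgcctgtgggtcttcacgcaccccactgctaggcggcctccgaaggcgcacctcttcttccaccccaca

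The H2-K1 and H2-D1 windows were identical at 176 of 240 aligned bases (73.3%), and those of H2-K1 and H2-Q4 at 67.1% of 237, so these chains share promoter letters as well as coding letters. The kappaB word began 111 bases before the start in H2-K1, 171 bases before it in H2-D1 and 126 bases before it in B2m, where the ISRE-like word began 13 bases further upstream, at 139. In H2-T23 the ISRE-like word began 124 bases before the start, and in Psmb8 the GAS word began 97 bases before it. No word was found in the windows of Tap1, Psmb9, Tapbp and H2-Q4, which says only that these letters are not there.

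Library totals were 9.95 to 18.8 M counts in the 9 depletion libraries, from 81.4 to 92.2 M in the 12 training libraries and from 48.8 to 58.7 M in the 5 intact libraries, and levels are given in CPM, the usual unit of counts scaled to library size, here the total after TMM scaling (the effective library size), so that they differ from counts over the raw total. H2afy was at 43.1, 44.9 and 39.2 CPM in shH2afy libraries of the depletion experiment, against 60.8, 58.2 and 52.7 CPM in shScr. H2afy2 was at 13.2, 8.06 and 7.57 CPM in shH2afy2, against 18.3, 18.7 and 18.9 CPM in shScr. In the training experiment the libraries labelled shH2afy were not lower in H2afy, with 88.5 to 99.5 CPM in trained and 87.1 to 88.8 CPM in untrained mice, against 80.4 to 86.7 and 78.3 to 82.2 CPM in shScr (edgeR, adjusted p = 0.0793 and 0.0868). These counts ran over whole transcripts, introns included, so mature H2afy mRNA alone was not measured. The group name there is taken from the label. The region that the shRNA targets was not analysed here.

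All 10 members rose in shH2afy libraries of the depletion experiment, by 3.01 to 5.64 on the log2 scale, and each shH2afy library was above each shScr library for each of them. H2-K1, a classical heavy chain that shows peptides to CD8+ T cells, had 978, 1273 and 290.4 CPM in shH2afy libraries, against 29.7, 19.4 and 23.3 CPM in shScr. The third shH2afy library was lowest of its group, as it was for every member, and still far above the shScr range. The log2 fold change of H2-K1 was 5.20 (SE 0.57, adjusted p = 0.000737, edgeR's quasi-likelihood test with Benjamini-Hochberg adjustment over 16179 genes, n = 3 each, as for the values that follow). H2-D1, the other classical heavy chain of this strain, had 1255, 1659 and 408 CPM in shH2afy libraries, against 53.8, 36.3 and 38.3 CPM in shScr (4.76, SE 0.53, adjusted p = 0.000794). B2m, the light chain without which heavy chains do not reach the surface, had 1496, 1834 and 536 CPM, against 87.2, 66.2 and 67.2 CPM in shScr (4.20, SE 0.46, adjusted p = 0.000744). For these abundant chains the groups did not overlap, and the lowest shH2afy library lay above the highest shScr library.

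The nonclassical chains moved in the same way from lower levels. H2-Q4, a class Ib chain of the Q region, had 143, 179 and 41.0 CPM in shH2afy libraries, against 3.18, 1.99 and 2.45 CPM in shScr, where it rested on 46, 32 and 23 counts. Its log2 fold change, 5.64 (SE 0.61, adjusted p = 0.000697), was the largest point estimate of the 10. H2-T23, the Qa-1 chain recognised by the CD94/NKG2 receptors of natural killer cells, had 188, 251 and 56.2 CPM, against 7.54, 10.2 and 8.08 CPM in shScr (4.32, SE 0.55, adjusted p = 0.00129). Neither chain overlapped between the groups.

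The peptide-loading members were also higher, the tapasin and Tap2 changes being the smaller ones. Tap1, a subunit of the peptide transporter, had 136, 164 and 40.5 CPM in shH2afy libraries, against 5.12, 2.55 and 3.40 CPM in shScr (log2 fold change 5.01, SE 0.58, adjusted p = 0.000936). Tap2, the other subunit, had 56.8, 69.6 and 21.1 CPM, against 6.16, 6.42 and 6.70 CPM in shScr (3.01, SE 0.42, adjusted p = 0.00208). The shScr libraries thus held more Tap2 than Tap1 counts, while the shH2afy libraries held more Tap1 than Tap2 counts, without a correction for length. Tapbp, tapasin, which links the transporter to the heavy chain, had 193, 230.1 and 77.0 CPM, against 23.7, 18.4 and 19.0 CPM in shScr (3.10, SE 0.39, adjusted p = 0.00132). The immunoproteasome subunits were higher as well, from few shScr counts. Psmb8, which takes the place of the constitutive subunit Psmb5, had 79.3, 89.9 and 24.0 CPM, against 2.84, 1.87 and 2.77 CPM in shScr (4.78, SE 0.54, adjusted p = 0.000867). Psmb9, which takes the place of Psmb6, had 43.8, 53.1 and 12.9 CPM, against 1.80, 0.810 and 1.60 CPM in shScr, from 26, 13 and 15 counts there (4.80, SE 0.61, adjusted p = 0.00132).

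**Figure D1:**
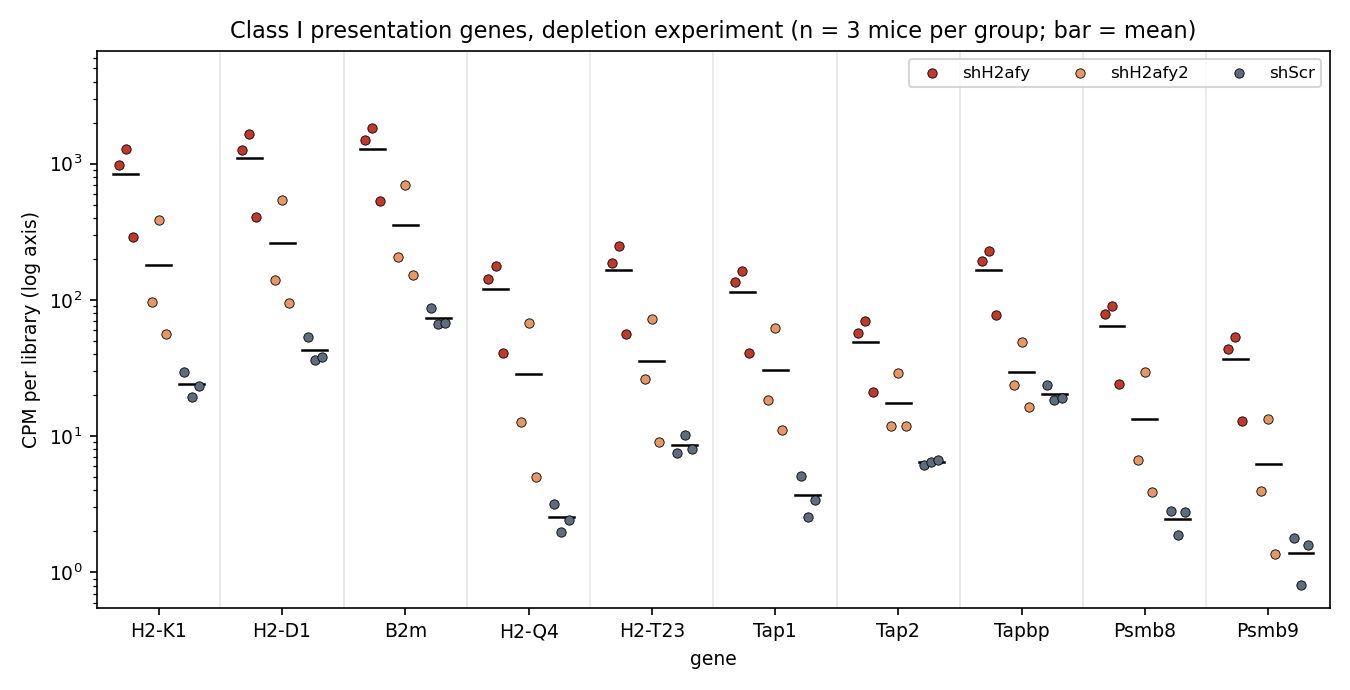
CPM (log axis) of each member in the 3 shH2afy, 3 shH2afy2 and 3 shScr libraries of the depletion experiment, with a bar at the group mean. H2-K1 sits between 290.4 and 1273 in shH2afy, between 56.4 and 388 in shH2afy2 and between 19.4 and 29.7 in shScr.

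All 10 members passed both thresholds of the experiment (fold change above 2 and adjusted p under 0.01), beside 11.7% of all genes tested (10.5% higher), and the 10 whose shH2afy libraries all lay above shScr beside 23.9% of all genes. The median log2 fold change was 4.77 over the members and 0.01 over all genes. Leaving out shScr replicate 3 cost 4 members the call (Tap2, Tapbp, Psmb9 and H2-T23), with log2 fold changes of 2.97, 2.98, 4.82 and 4.21, so that 6 stayed called, and Tap2 was lost as well without shH2afy replicate 1 (2.89), shScr replicate 1 (2.91) or shScr replicate 2 (2.93). The third shScr library had the lowest total of the experiment (9.95 M counts) and the highest mitochondrial share (6.25%). Mitochondrial shares were 2.71 to 3.38% in shH2afy libraries, against 3.87 to 6.25% in shScr libraries, and the part of library quality in the result was not tested. Markers of several cell types moved with these genes. The summed level of 7 microglial markers was 1246 to 1870 CPM in shH2afy, against 270 to 404 CPM in shScr (7 of 7 higher), and that of 6 monocyte and dendritic cell markers was 181 to 921 CPM, against 12.4 to 24.2 CPM (5 of 6 higher). Markers of B and plasma cells summed to 1373, 1784 and 31.5 CPM in shH2afy, against 9.36 to 27.3 CPM in shScr (0 of 1 tested called), and those of T and NK cells to 7.39 to 77.0 CPM, against 0.810 to 22.1 CPM (1 of 5 higher). The B and plasma cell sum was high in 2 of the 3 shH2afy libraries and close to shScr in the other. Neutrophil markers summed to at most 1.93 CPM in shH2afy and 0.213 CPM in shScr, with Ly6g at 0, and endothelial markers to 138 to 170 CPM in shH2afy and 120 to 165 CPM in shScr. Markers of CA1 pyramidal neurons, which name the tissue, summed to 1831 to 3536 CPM in shH2afy, against 4327 to 6271 CPM in shScr (1 of 5 lower). Astrocyte markers summed to 4742 to 5310 CPM in shH2afy, against 1176 to 1639 CPM in shScr (2 of 5 higher), and inhibitory neuron markers to 463 to 559 CPM, against 910.1 to 1005 CPM (3 of 5 lower). The microglial and astrocyte sums of all shH2afy libraries thus lay above those of all shScr libraries, and both neuronal sums below. The part of these cells in the result was not tested.

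Counts of the immunoproteasome subunits were then set against the constitutive subunits they replace, which is a ratio within a library. The ratio of Psmb8 to Psmb5 counts was 1.15, 1.15 and 0.358 in shH2afy libraries, 0.0758, 0.385 and 0.0414 in shH2afy2 libraries and 0.0308, 0.0226 and 0.0311 in shScr libraries. In 2 of the 3 shH2afy libraries the inducible subunit thus had more counts than its constitutive partner, without a correction for length. The ratio of Psmb9 to Psmb6 was 0.467, 0.565 and 0.179 in shH2afy libraries, 0.0508, 0.216 and 0.0175 in shH2afy2 libraries and 0.0215, 0.0105 and 0.0171 in shScr libraries. For Psmb10, the third inducible subunit and no member, the ratio to Psmb7 was 0.645, 0.807 and 0.356 in shH2afy libraries, 0.341, 0.410 and 0.254 in shH2afy2 libraries and 0.255, 0.265 and 0.318 in shScr libraries, a much smaller spread between groups. The log2 difference of shH2afy from shScr was 4.80 for Psmb8 to Psmb5, 4.53 for Psmb9 to Psmb6 and 1.04 for Psmb10 to Psmb7 (exact two-sided permutation p = 0.1 each, the smallest that 3 against 3 mice can give). That of shH2afy2 from shScr was 1.93 (p = 0.1), 1.88 (p = 0.2) and 0.24 (p = 0.4) by the same exact test, and without shH2afy2 replicate 2 the first of these was 1.01 and the second 0.93. Psmb5, Psmb6 and Psmb7 themselves had log2 fold changes of -0.23, 0.10 and 0.03 in shH2afy against shScr, and none was called.

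**Figure D2:**
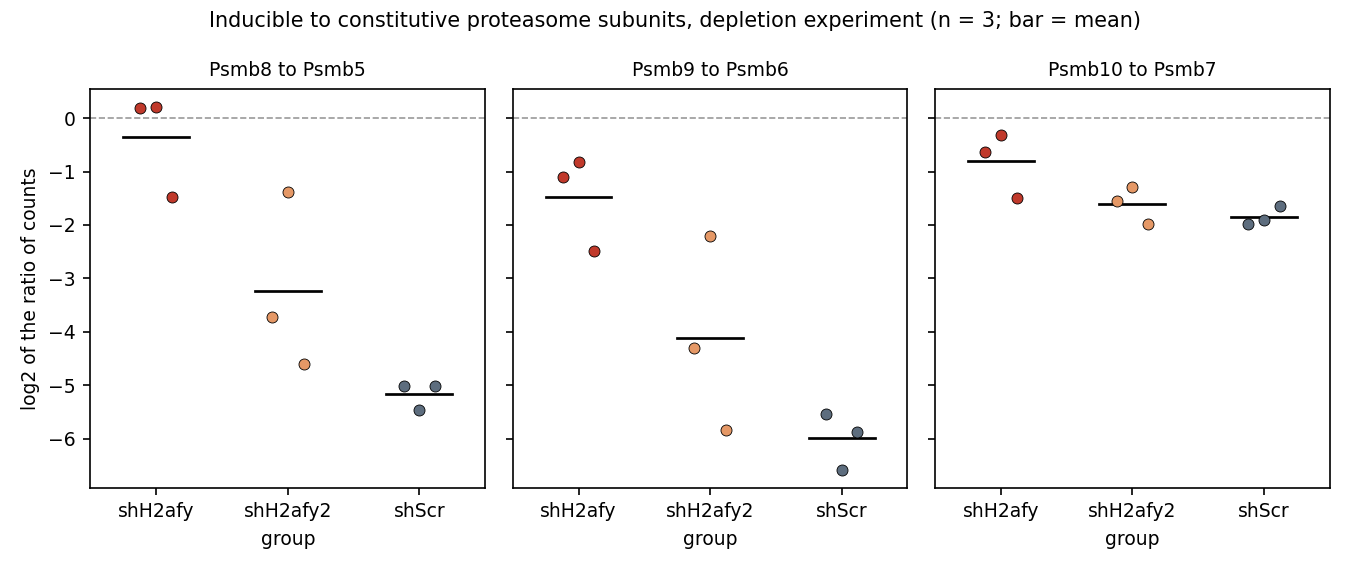
Log2 ratio of inducible to constitutive proteasome subunit counts in each shH2afy, shH2afy2 and shScr library of the depletion experiment. The shH2afy libraries lie above all shScr libraries for the 3 ratios, by 4.80, 4.53 and 1.04 on average.

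In shH2afy2 libraries no member passed the thresholds against shScr, as no gene of 15609 did by edgeR (0.0% of all genes). The point estimates were all positive, with the second mouse the highest of its group for each member. H2-K1 had 96.3, 388 and 56.4 CPM in shH2afy2, H2-D1 had 139, 545 and 95.1 CPM, and B2m had 207, 703 and 154 CPM, against the shScr values given above. Each of these 9 values was above every shScr library of its gene. Tap1 had 18.3, 61.9 and 11.1 CPM and Tap2 had 11.8, 29.2 and 11.9 CPM, also above every shScr library, as did H2-Q4 (12.8, 68.0 and 5.03 CPM) and Psmb8 (6.73, 29.6 and 3.90 CPM). The ranges overlapped for H2-T23 (26.2, 72.6 and 9.04 CPM), Psmb9 (3.95, 13.4 and 1.36 CPM) and Tapbp (23.6, 48.9 and 16.3 CPM). The 7 members without overlap stand beside 13.3% of all genes that were higher in every shH2afy2 library. Log2 fold changes ran from 0.55 for Tapbp (SE 0.37, adjusted p = 0.448) to 3.50 for H2-Q4 (SE 0.95, adjusted p = 0.117), with a median of 2.36 and adjusted p of 0.0868 to 0.448. An unadjusted p under 0.05 was reached by 9 of the 10, DESeq2 called 3 (Tap1, Tap2 and Psmb8, beside 0.785% of all genes) and edgeR without a filter on low counts called 9, all but Tapbp (0.923% of all genes). Without shH2afy2 replicate 2 no member was called either, and the log2 fold changes ran from -0.03 (Tapbp) to 2.00 (Tap1) with a median of 1.2, such as 1.67 for H2-K1, 1.80 for H2-Q4 and 1.10 for Psmb8. That library was also the highest of its group in microglial markers (629 CPM, against a lowest of 367 CPM in the group), monocyte and dendritic cell markers (148 CPM) and B and plasma cell markers (394 CPM), whose part in the result was not tested.

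Set directly against each other, shH2afy over shH2afy2 libraries gave a positive log2 fold change for all 10 members. By edgeR, 9 of the 10 had an unadjusted p under 0.05. Tapbp alone passed the thresholds, with a log2 fold change of 2.49 (SE 0.52, adjusted p = 0.00997, edgeR), where 9.56% of 16294 genes were called (7.96% higher). It was also the one member whose shH2afy libraries all lay above all shH2afy2 libraries, which held for 25.4% of all genes. For the other 9 the log2 fold changes were 1.48 (Tap2) to 2.54 (Psmb9), with the second shH2afy2 library above the third shH2afy library, and adjusted p reached 0.120. DESeq2 called 2 members (Tapbp and Tap2, beside 11.9% of all genes), and edgeR without a filter on low counts called all 10 (7.18% of all genes). The count of members called was 0 without shH2afy replicate 1 or 2 or without shH2afy2 replicate 1 or 3, and it was 5 without shH2afy2 replicate 2, when H2-K1 (3.42), H2-D1 (3.19), B2m (2.79) and Psmb8 (3.56) joined Tapbp. The comparisons with shScr share the shScr libraries, so their values are given side by side and not as 2 separate results.

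**Figure D3:**
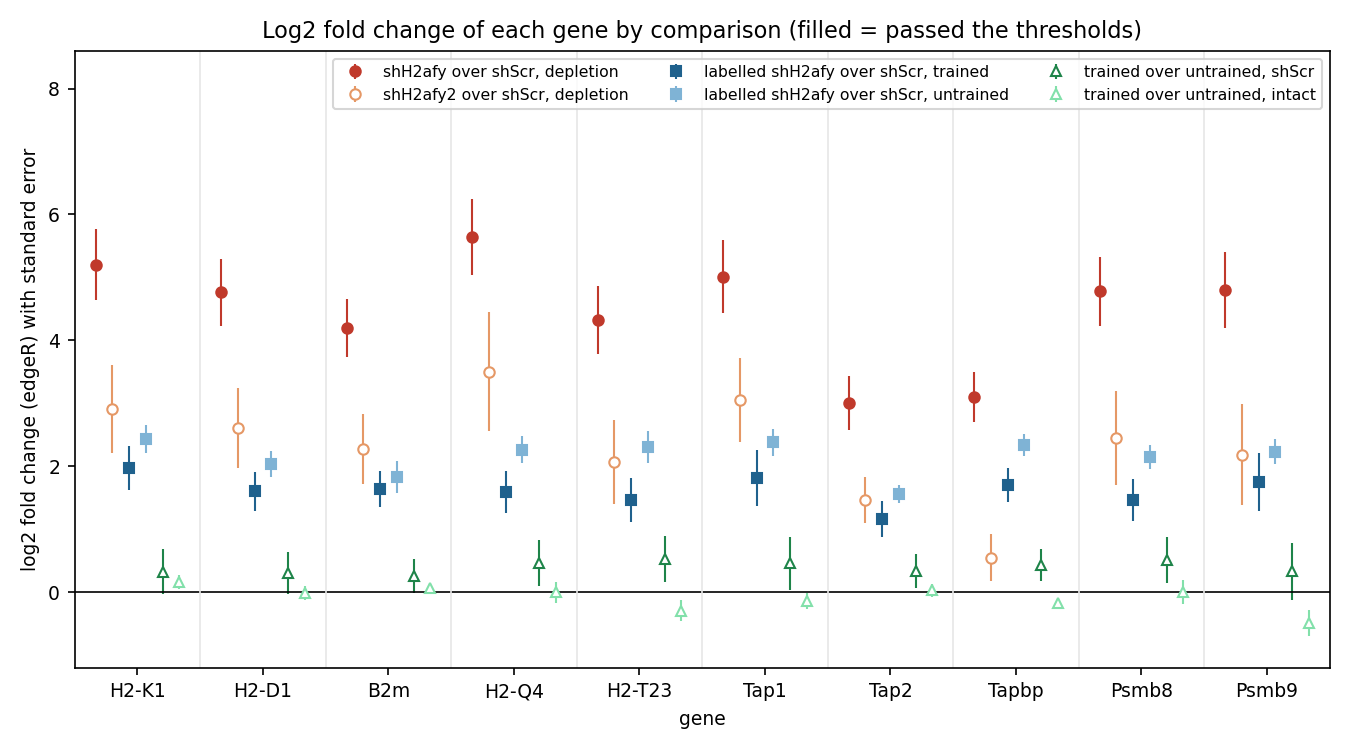
Log2 fold changes with standard errors (bars) of the 10 members in 6 comparisons, first-named group over the second, filled where the thresholds of the comparison were passed. In the depletion experiment all 10 are filled for shH2afy against shScr (3.01 to 5.64) and none for shH2afy2 against shScr. In the training experiment all 10 are filled for libraries labelled shH2afy against shScr, in trained as in untrained mice. None is filled for trained against untrained mice, shScr or intact.

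The rest of the pathway was described from a list of 56 other genes. In shH2afy against shScr, 27 of 44 genes tested rose and none fell, beside 10.5% and 1.2% of all genes, with a median log2 fold change of 1.95. By role, these were 6 of 6 further class Ia and Ib chains (such as H2-T24, 2.29), 3 of 4 class I-like genes (Hfe, Mr1 and Cd1d1), 4 of 4 receptors of class I, 10 of 18 regulators, 2 of 5 loading factors (Erap1, the peptidase that trims peptides, 2.52, and Tapbpl) and 2 of 7 proteasome genes (Psme1 and Psme2, which form the activator cap). Calr, Canx and Pdia3, the general chaperones of the endoplasmic reticulum, were not called, nor were Psmb5, Psmb6 and Psmb7. Nlrc5, the class I transactivator, had 44.0, 49.3 and 16.7 CPM in shH2afy, against 0.692, 0.311 and 1.28 CPM in shScr (5.77, SE 0.59, adjusted p = 0.000569), and shH2afy2 libraries had 3.33, 15.3 and 1.19 CPM. The third shH2afy and the second shH2afy2 library stood apart in Nlrc5 in the same way as in the members. Irf1, an interferon-induced activator of class I genes, had 88.9, 100.4 and 19.6 CPM in shH2afy, against 3.87, 5.98 and 3.83 CPM in shScr (3.98, adjusted p = 0.00302). Irf7, the regulator of type I interferon genes, had 137.5, 143 and 79.4 CPM, against 1.18, 0.810 and 1.49 CPM (6.81, SE 0.34, adjusted p = 5.88e-05). Neither regulator overlapped between these groups. Pirb, an inhibitory receptor that binds class I on myeloid cells and neurons, had 15.8, 17.7 and 7.46 CPM, against 0.277, 0.249 and 0.213 CPM (5.80). Psmb10 had 52.4, 63.0 and 26.5 CPM, against 20.5, 21.6 and 25.0 CPM, and did not pass (1.15, SE 0.30, adjusted p = 0.0226). The interferons Ifng and Ifnb1 had too few counts to be tested. In shH2afy2 against shScr 0 of 41 were called by edgeR, beside 0.0% of all genes, and in shH2afy against shH2afy2 7 of 46 were higher (Hfe, Stat2, H2-T24, Ifnar2, Irf7, Mr1 and Irf9), beside 7.96% of all genes.

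Across the 9 depletion libraries the members followed each other closely. The Pearson correlation of each member with the mean of the other 9, on log2(CPM + 0.05), was between 0.944 for Tapbp and 0.998 for Psmb8. Of 15134 genes with a mean of at least 1 CPM, those most like the members' mean pattern were Gbp5 (r = 0.997), Gbp2 (0.997), Ly6c2 (0.995), Cybb (0.994), H2-T22 (0.992), Irgm1 (0.992), H2-M3 (0.992), Gimap4 (0.992), Irgm2 (0.992) and Ifi47 (0.991). Gbp5, a guanylate-binding protein induced by interferon, averaged 60.4 CPM over the shH2afy libraries, 12.9 CPM over shH2afy2 and 1.73 CPM over shScr. These values describe 9 libraries that fall into 3 groups, and they share the libraries' depth and cell makeup.

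The order of the members was read on CPM per kb of exon. In untrained intact mice it was B2m (56.9 ± 1.96, SD, n = 3), H2-D1 (11.5 ± 1.23), Tapbp (7.42), H2-K1 (5.55), H2-T23 (2.81), Tap2 (2.37), H2-Q4 (0.957), Psmb8 (0.559), Tap1 (0.555) and Psmb9 (0.248). The ranges overlapped between H2-T23 and Tap2 and between Psmb8 and Tap1, and other neighbours did not overlap. In shH2afy libraries of the depletion experiment the order was B2m (1499), H2-D1 (429), H2-K1 (288), H2-T23 (57.1), H2-Q4 (46.6), Tapbp (45.9), Tap1 (20.7), Psmb8 (19.0), Tap2 (13.0) and Psmb9 (10.0), against B2m (85.5), H2-D1 (16.6), H2-K1 (8.22), Tapbp (5.62), H2-T23 (2.98), Tap2 (1.70), H2-Q4 (0.979), Psmb8 (0.736), Tap1 (0.674) and Psmb9 (0.383) in shScr libraries. Among the shH2afy libraries only H2-K1 and H2-T23 were neighbours whose ranges did not overlap. The members moved together from mouse to mouse there, so overlap of these ranges does not show that the order changed within a mouse. The order within each mouse was not read.

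Libraries labelled shH2afy in the training experiment were not lower in H2afy counts, introns included. All 10 members were again higher in them than in shScr, in trained as in untrained mice. In untrained mice B2m had 294, 561 and 545 CPM in libraries labelled shH2afy, against 111, 136 and 148 CPM in shScr (1.83, SE 0.25, adjusted p = 0.00106). H2-K1 had 181, 255 and 245 CPM, against 31.9, 39.7 and 54.8 CPM (2.43, SE 0.22, adjusted p = 0.000215), and H2-D1 had 283, 364 and 345 CPM, against 61.4, 74.9 and 106 CPM (2.03). In both heavy chains every library labelled shH2afy lay above every shScr library. Tapbp had 98.5, 135 and 101 CPM, against 17.8, 22.1 and 26.3 CPM (2.34, SE 0.18, adjusted p = 0.000133), the smallest adjusted p of the 10. Tap1 had 47.0, 69.7 and 53.9 CPM, against 8.14, 11.2 and 13.5 CPM (2.38), and Tap2 had 31.2, 40.5 and 31.6 CPM, against 10.1, 11.5 and 13.5 CPM (1.56). The loading members were thus free of overlap as well. Psmb8 had 18.4, 22.5 and 20.1 CPM, against 3.50, 4.45 and 5.82 CPM (2.15), and Psmb9 had 13.5, 18.8 and 16.2 CPM, against 2.77, 3.12 and 4.43 CPM (2.23). The nonclassical chains were again separate between the groups. H2-Q4 had 50.4, 65.7 and 52.9 CPM, against 8.81, 10.7 and 15.7 CPM (2.27), and H2-T23 had 44.2, 64.5 and 45.8 CPM, against 7.51, 9.77 and 14.0 CPM (2.31). The 10 called stand beside 43.7% of 15799 genes (25.2% higher), and the 10 without overlap beside 30.5% of genes higher in every library, so a call was common in this comparison. The median was 2.25 over the members, and all 10 stayed called without each library in turn.

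In trained mice the log2 fold changes were 1.17 (Tap2) to 1.97 (H2-K1), with a median of 1.62. H2-K1 had 240.2, 219.9 and 168 CPM in trained libraries labelled shH2afy, against 31.0, 80.3 and 48.2 CPM in trained shScr libraries (1.97, SE 0.35, adjusted p = 0.00549). Psmb9 had 17.3, 16.1 and 10.8 CPM, against 1.71, 6.41 and 4.94 CPM (1.75, SE 0.46, adjusted p = 0.0218, the largest of the 10). Among the trained shScr mice the second was highest and the first lowest for all 10 members, and none of them reached the libraries labelled shH2afy. B2m had 528, 535 and 421 CPM, against 99.3, 215 and 161 CPM (1.64), and Tapbp had 107, 109 and 75.6 CPM, against 19.5, 38.0 and 32.4 CPM (1.70, SE 0.27, adjusted p = 0.00378). H2-D1 had 345, 319.8 and 248 CPM, against 60.7, 144 and 95.9 CPM (1.60), H2-Q4 had 55.9, 51.6 and 39.5 CPM, against 9.07, 23.4 and 16.2 CPM (1.59), and H2-T23 had 48.0, 46.8 and 30.6 CPM, against 8.24, 21.1 and 15.9 CPM (1.47). The third trained mouse labelled shH2afy was the lowest of its group for all 10 members. Tap1 had 62.8, 59.1 and 38.2 CPM, against 6.54, 22.0 and 16.8 CPM (1.82), and Tap2 had 37.2, 36.1 and 26.8 CPM, against 9.01, 19.2 and 16.3 CPM (1.17). Psmb8 had 20.1, 18.8 and 15.8 CPM, against 3.41, 9.08 and 7.31 CPM (1.46). All 10 were called by edgeR (fold change above 1.2 and adjusted p under 0.05), beside 41.3% of 15703 genes (22.8% higher), and none overlapped, beside 30.1%. Without the first trained mouse labelled shH2afy 6 stayed called, the others being Tap1 (1.68), Tap2 (1.08), Psmb9 (1.62) and H2-T23 (1.36). Psmb9 was also lost without the second such mouse (1.68) or the third trained shScr mouse (1.85). Microglial markers summed to 747 to 889 CPM in trained and 736 to 1078 CPM in untrained libraries labelled shH2afy, against 222 to 337 and 236 to 281 CPM in shScr (7 of 7 higher in each). CA1 pyramidal markers summed to 1239 to 1641 and 1202 to 1714 CPM, against 3042 to 3392 and 3057 to 3385 CPM (4 of 5 lower in each). Other cell types moved too. Monocyte and dendritic cell markers summed to 242 to 429 CPM in trained and 189 to 367 CPM in untrained libraries labelled shH2afy, against 30.6 to 80.6 and 36.3 to 40.7 CPM in shScr (3 and 4 of 6 higher), and T and NK cell markers to 20.3 to 32.7 and 16.8 to 22.4 CPM, against 2.83 to 11.5 and 4.29 to 6.21 CPM (3 and 6 of 6 higher). Astrocyte markers summed to 1923 to 2092 and 1838 to 2064 CPM, against 809 to 1176 and 822 to 993 CPM (3 and 4 of 5 higher). Endothelial markers were called higher for 3 of 5 in each, and meningeal and fibroblast markers for 3 of 3 in each, while inhibitory neuron markers were called lower for 2 and 3 of 5. The part of these cells in the result was not tested.

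Of the other pathway genes, 38 of 48 rose and 1 fell (Psme3, the nuclear proteasome activator) in untrained mice labelled shH2afy against shScr, and 34 of 48 rose and 2 fell (Psme3 and Psmb5) in trained mice. Of all genes, 25.2% were higher and 18.5% lower in untrained mice, and 22.8% higher and 18.4% lower in trained mice. Nlrc5 had log2 fold changes of 1.95 in trained and 2.44 in untrained mice, and Irf1 of 1.90 and 2.45. Psmb10 was called in both, at 0.90 (adjusted p = 0.0177) and 1.33 (adjusted p = 0.000609, edgeR). The thresholds here were a fold change above 1.2 and an adjusted p under 0.05. Those of the depletion experiment, which Psmb10 had not passed (1.15, adjusted p = 0.0226, edgeR), were stricter. They were a fold change above 2 and an adjusted p under 0.01, so the calls of the experiments are not compared. Ifng, interferon gamma, singled out after its values were seen, was also called higher, at 3.31 in trained and 2.49 in untrained mice. The ratios of Psmb8 to Psmb5 and of Psmb9 to Psmb6 were higher in libraries labelled shH2afy by 2.00 and 1.98 (log2) in trained mice and by 2.26 each in untrained mice, while that of Psmb10 to Psmb7 was higher by 0.89 and 1.33 (exact two-sided permutation p = 0.1 each, the smallest possible).

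**Figure D4:**
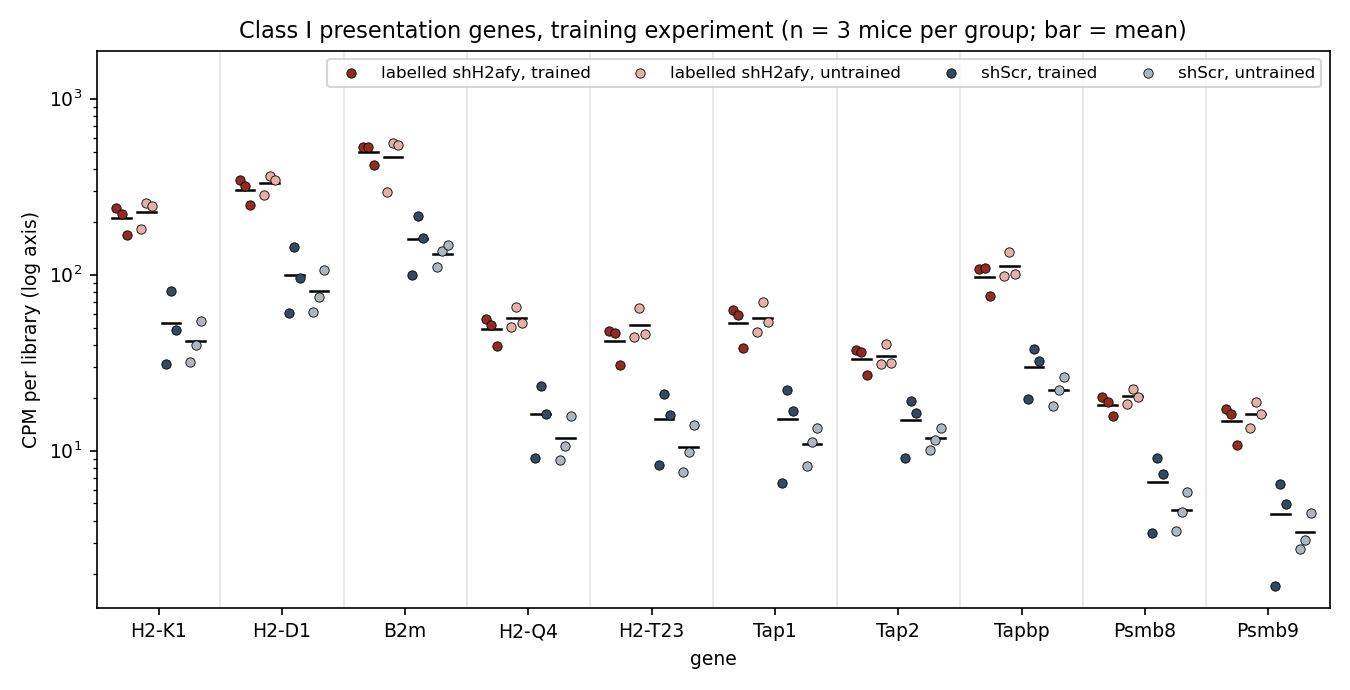
CPM (log axis) of each member in the 12 libraries of the training experiment, trained left of untrained and libraries labelled shH2afy left of shScr, with a bar at the group mean. All libraries labelled shH2afy lie above all shScr libraries of the same condition, and trained and untrained libraries of the same virus overlap.

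Training itself moved no member past the threshold in any group. Within shScr mice the trained libraries had log2 fold changes of 0.26 (B2m) to 0.53 (H2-T23) against untrained libraries, with SE up to 0.46 and adjusted p of 0.696 to 0.887. No member and no gene was called by edgeR (0.0%), none of the members had an unadjusted p under 0.05, and DESeq2, which called 1.33% of all genes, called no member. H2-T23 had 8.24, 21.1 and 15.9 CPM in trained shScr mice, against 7.51, 9.77 and 14.0 CPM in untrained ones. The ranges overlapped for H2-T23, as for the other members, where 8.12% of all genes were higher in every trained library. Same-numbered shScr mice deviated together, though the titles give only a replicate number and name no pair. Within the 3 same-numbered pairs Tapbp, H2-Q4 and H2-T23 were higher in each trained mouse, as 16.5% of 15424 genes were. With the number as a block the log2 fold changes were 0.18 to 0.47 and adjusted p 0.524 to 0.915 (edgeR), so that no member was called. Within libraries labelled shH2afy the changes with training were -0.30 (H2-T23) to 0.09 (B2m), all with an adjusted p of 0.998, and no member was called by edgeR or by DESeq2 (0.0% and 0.213% of all genes) or had an unadjusted p under 0.05. The interaction of training and virus was -0.84 (H2-T23, SE 0.46) to -0.19 (B2m, SE 0.40), negative for all 10, and no member was called by edgeR or DESeq2 (edgeR adjusted p = 1.0 for each after rounding) or had an unadjusted p under 0.05, beside 0.0% of 15997 genes. The SE of the interaction was 0.34 to 0.53 on the log2 scale.

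Intact mice had undergone no surgery. B2m had 53.3 and 49.0 CPM in trained mice, against 49.1, 50.5 and 47.2 CPM in untrained mice, and H2-K1 had 19.5 and 17.0 CPM, against 18.7, 15.5 and 14.6 CPM. These ranges overlapped, as did those of H2-D1 (32.2 and 26.8 CPM in trained mice, against 33.4, 27.7 and 28.2 CPM), H2-Q4 (2.87 and 2.10 CPM, against 2.56, 2.43 and 2.46 CPM) and Psmb8 (2.21 and 1.59 CPM, against 1.77, 2.12 and 1.79 CPM). H2-T23 had 6.32 and 6.97 CPM in trained mice, against 10.0, 6.84 and 7.5 CPM in untrained mice. Tap1 had 2.81 and 2.69 CPM, against 3.19, 3.13 and 2.79 CPM, and Tap2 had 9.82 and 8.44 CPM, against 9.71, 8.72 and 8.42 CPM. For these 3 genes too a trained mouse lay within the untrained range. Psmb9 had 0.639 and 0.648 CPM in trained mice, against 0.819, 0.998 and 0.904 CPM in untrained mice (-0.49, SE 0.21, unadjusted p = 0.0493 and adjusted p = 0.249, edgeR). Tapbp had 25.0 and 22.9 CPM, against 27.0, 27.5 and 26.3 CPM (-0.17, SE 0.06, unadjusted p = 0.0311 and adjusted p = 0.207). These are the 2 members whose trained libraries lay below all untrained ones, beside 19.5% of all genes, and neither passed the adjusted threshold. Across the 10, log2 fold changes ran from -0.49 to 0.16 (H2-K1), and 0 were called by edgeR, with 2 at an unadjusted p under 0.05 and 0 members by DESeq2, beside 0.0959% of 15641 genes by edgeR and 3.26% by DESeq2. Microglial markers summed to 293 to 300 CPM in trained and 256 to 318 CPM in untrained mice.

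In chromatin, the share of each gene body covered by domains was read from the lists of the single ChIP libraries. The medians below pool libraries of 30 min, 1 h and 6 h for mH2A1, and of 30 min and 1 h for mH2A2. The paper used one mH2A1 antibody at 30 min and another at 1 h and 6 h, so antibody and time cannot be told apart. Per library, mH2A1 domains covered 325 to 416 megabases at 30 min, against 598 to 636 megabases at 6 h. mH2A1 domains covered the gene bodies of the neighbours Psmb9, Tap1, Psmb8 and Tap2 in nearly every mouse, and never that of B2m. Within 2 kb of the B2m start they gave cover in 3 of 9 trained libraries (at most 32.9%) and in 0 of 10 untrained libraries. In trained mice (9 libraries) the median cover was 86.8% for Psmb9, 83.5% for Tap1, 76.4% for Psmb8, 70.5% for H2-Q4, 68.7% for Tap2, 64.3% for H2-K1 and 43.4% for H2-D1. In untrained mice (10 libraries) it was 90.2% for Psmb9, 81.0% for Tap1, 79.1% for Psmb8, 76.6% for H2-Q4, 75.0% for Tap2, 20.6% for H2-K1 and 20.7% for H2-D1. Tapbp and H2-T23 had a median of 0 in both, with cover in 3 and 1 of 10 untrained libraries, and B2m had 0 in all 19. Of 21938 protein-coding genes, the one in the middle had a mean cover of 1.2% in trained and 5.22% in untrained mice, a mean and not a median over libraries. By mean cover Psmb9, Tap1, Psmb8 and Tap2 lay at percentiles 84.1 to 93.1 of these genes in trained and 86.9 to 92.8 in untrained mice. H2-Q4 lay at 85.8 and 85.3, H2-K1 at 79.5 and 75.4, and H2-D1 at 77.4 and 75.7. H2-T23 lay at 62.3 and 48.6, Tapbp at 0.0 and 61.1, and B2m at 0.0 in both. A domain can span several of the 4 adjacent genes, so they are not separate observations. The antibody label of the 2 untrained mH2A1 libraries of 1 h names macroH2A2, and without them the untrained medians were 90.2% for Psmb9, 84.0% for Tap1, 89.8% for Psmb8, 85.2% for Tap2, 29.8% for H2-K1 and 46.1% for H2-D1.

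mH2A2 domains were more uneven between mice. In trained mice (5 libraries) the medians were 86.1% for H2-T23, 61.9% for Tap2, 50.4% for H2-K1, 48.5% for Psmb9, 43.9% for H2-Q4, 36.5% for Tapbp, 33.1% for Tap1, 28.7% for H2-D1 and 0 for Psmb8. In untrained mice (6 libraries) they were 100% for H2-D1, Psmb8 and Psmb9, 87.7% for Tapbp, 81.1% for Tap1, 79.7% for Tap2, 36.0% for H2-Q4, 16.0% for H2-K1 and 3.7% for H2-T23. B2m was covered in 1 of the 6 untrained libraries (42.3%) and in no trained one. The protein-coding gene in the middle had a mean mH2A2 cover of 13.6% in trained and 17.3% in untrained mice. The 5 mice of 30 min gave both antibodies, in which Tapbp was covered to 0%, 0%, 40.3%, 41.8% and 31.4% by mH2A1 domains, against 36.5%, 0%, 44.8%, 90.3% and 85.8% by mH2A2 domains of the same mice. The mean difference of mH2A1 minus mH2A2 was -28.8 percentage points for Tapbp (exact paired permutation p = 0.125) and -35.4 points for H2-T23 (p = 0.25, the same exact test, whose smallest possible p is 0.0625). No gene was called between the antibodies (0.0% of 37177 genes).

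At 30 min after training, mH2A1 domains covered less of 4 members in each trained mouse than in any untrained mouse. Psmb8 was covered to 71.1% and 0% in trained mice, against 100%, 100% and 87.1% in untrained mice. Tap2 was covered to 54.7% and 19.7%, against 87.5%, 82.8% and 100%, and Tap1 to 57.9% and 0%, against 87.6%, 68.5% and 81.1%. Tapbp was covered to 0% in both trained mice, against 40.3%, 41.8% and 31.4% in untrained mice, while Psmb9 overlapped (55.4% and 93.7%, against 86.2%, 79.6% and 100%). The heavy chains overlapped between the groups. H2-K1 was covered to 0% in both trained mice, against 0%, 100% and 81.9% in untrained mice, and H2-D1 to 100% and 0%, against 100%, 100% and 35.6%. H2-Q4 was covered to 42.0% and 85.9%, against 0%, 63.2% and 100%, and H2-T23 to 0% and 59.3%, against 0%, 45.4% and 0%. The differences of trained minus untrained were -60.2 points for Psmb8, -52.9 for Tap2, -50.1 for Tap1 and -37.8 for Tapbp (exact two-sided permutation p = 0.1 each, the smallest possible for 2 against 3 mice, adjusted p = 0.939). The 4 members stand beside 12.3% of 32240 genes that were lower in each trained mouse, and 0.0% of genes were called. The trained libraries were lower across the genome, with a mean difference of -9.53 points over all genes, and relative to the mean of each library 2 of the 4 (Tap2 and Tapbp) stayed below in each trained mouse.

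The mH2A2 libraries of the same mice showed 2 such members. Psmb8 was covered to 97.9% and 0% in trained mice, against 100% in each untrained mouse, and Tapbp to 36.5% and 0%, against 44.8%, 90.3% and 85.8%. These 2 stand beside 9.9% of 33604 genes, again with 0.0% called, and the mean difference over all genes was -10.0 points. At 1 h, mH2A1 covered Psmb8 to 100% and 92.5% in trained mice, against 71.1% and 65.7% in untrained mice, and H2-K1 to 46.2% and 68.9%, against 0% and 41.2%. They were higher in each trained mouse, beside 10.8% of 25031 genes, with an exact permutation p of 0.333, the smallest that 2 against 2 mice can give, and these untrained libraries are those with the doubtful antibody label. No member was called for mH2A2 at 1 h, where 0.0% of genes were. No gene could be called there, since the smallest possible exact permutation p was 0.1.

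At 6 h, with 5 mice in each group, no member separated. Psmb8 was covered to 71.1%, 100%, 71.1%, 76.4% and 100% in trained mice, against 71.1%, 100%, 92.5%, 65.7% and 71.1% in untrained mice. Tap1 was covered to 80.6 to 91.7% in trained mice, against 80.9 to 93.3% in untrained mice. H2-K1 had the largest difference, with 73.9%, 0%, 73.5%, 64.3% and 92.0% in trained mice, against 59.7%, 0%, 0%, 0% and 68.9% in untrained mice (35.0 points, exact two-sided permutation p = 0.111, where the smallest possible is 0.0079). The groups overlapped for H2-K1, and after adjustment no gene of 26647 was called (0.0%), with 649 genes at an unadjusted p under 0.05.

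**Figure D5:**
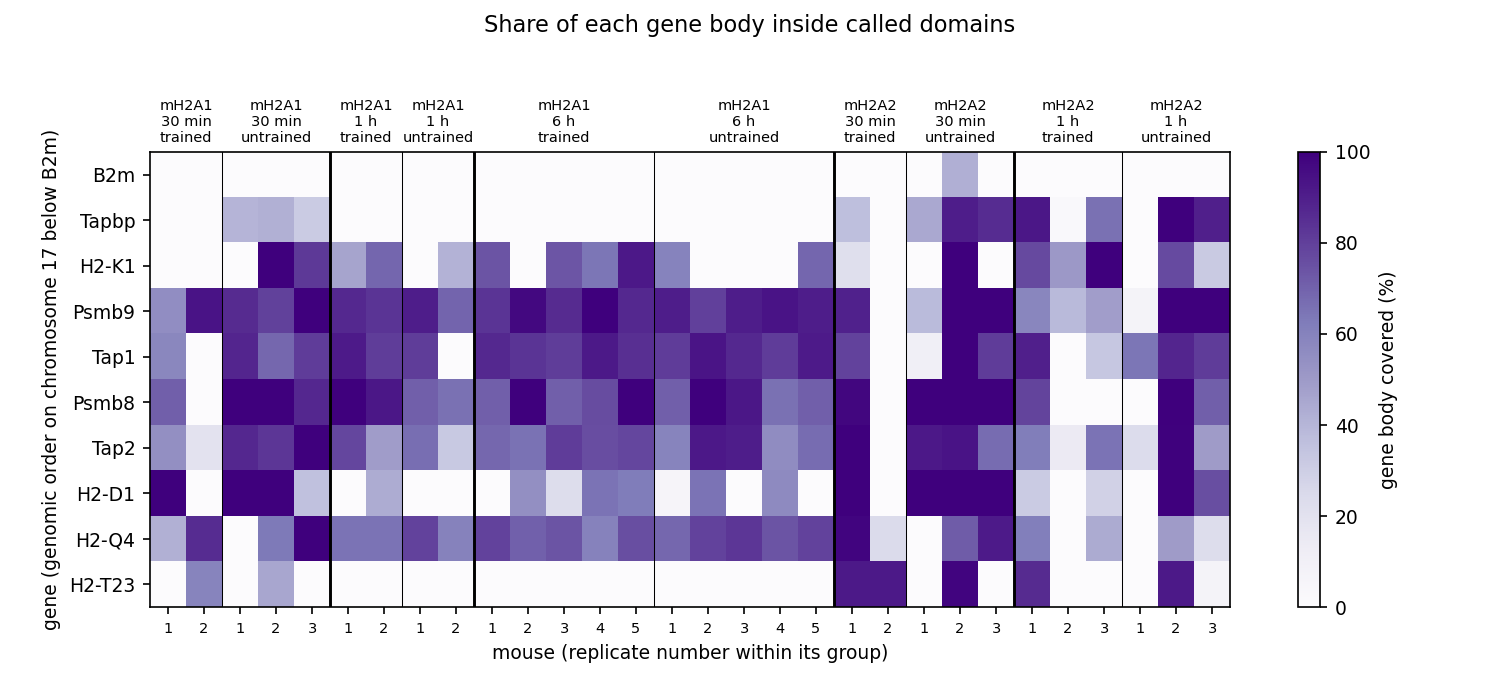
Share of each member's gene body covered by domains (percent, colour) in each ChIP library, trained mice left of untrained mice at each time, with B2m at the top and the chromosome 17 genes in their order. The band of Psmb9, Tap1, Psmb8 and Tap2 is covered in nearly all mH2A1 libraries, and B2m is empty in all 19.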

How the data were processed

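RNA counts were read from the 3 tables of raw counts per gene that the authors deposited, made with STAR (mm10) and featureCounts. The training libraries were depleted of ribosomal RNA and counted over whole transcripts, introns included, so levels are not compared between experiments. Broad domains were read from lists that the authors called in each ChIP library against input after Bowtie2 alignment to mm10 (epic2 in the methods, SICER in the labels). The deposited p-value and FDR of each domain are the caller's, the deposited score and log2 value give its enrichment over input, and only positions and the FDR were used here. Multi-mapped read handling and strand settings are not given in the sources used here.

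The main test was edgeR's quasi-likelihood test (edgeR 4.0.16, R 4.3.3) across all genes, with filterByExpr (least count 10, least total 15), TMM scaling and Benjamini-Hochberg adjustment. Each fit held only the groups compared, except the interaction, which held all 12 libraries. Genes were called with a fold change above 2 and adjusted p under 0.01 (depletion), a fold change above 1.2 and adjusted p under 0.05 (training with virus), or an adjusted p alone, under 0.05 (interaction) or 0.01 (intact mice). Alternatives were DESeq2 1.42.0, its size factors in edgeR, no filter, the replicate number as a block, and each library left out. The titles give only a replicate number and name no pair. The numbers were read as pairs only for trained against untrained shScr mice, where same-numbered libraries deviated together (correlations 0.168, 0.163 and 0.229), and the block also called 0 members there. Cover was the percentage of the gene body (GENCODE vM21) inside domains, tested over mice by exact permutation with Python 3.11.15 and SciPy 1.17.1. Counting error limits the lowest levels, such as the 13 counts of Psmb9 in an shScr library. The fits were tested on simulated data. The members, the pathway list and the marker lists were chosen with earlier results of these data known. The text names all members, genes among the 6 other pathway genes with the smallest adjusted p per comparison, Nlrc5, Irf1, Psmb10, Psmb5, Psmb6 and Psmb7, the 10 genes of most like pattern and the 2 targets. Not every gene that the rule allows is named, and one is not reported here. Other genes named to spell out a count were chosen after their values were seen. Nothing in the labels says that mice of a group came from separate litters or days, so p-values measure the spread between these mice.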

Additional observations from a re-analysis of the deposited data

Results flagged for a closer look

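Psmb9 in untrained mice of the 6 h mH2A1 group was covered to 79.9% in 1 mouse, against 90.2 to 93.7% in the other 4, a gap wide for the range of that group. It was the only one flagged of 14 sets of values searched, each from a group of 4 to 10 samples. Chance gives about 1 in 20 for each set, so 1 flag among 14 is not unusual.

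Psmb8 cover by mH2A1 domains in trained minus untrained mice was -60.2 points at 30 min and 27.9 points at 1 h, with every trained mouse below the untrained mice at 30 min and above them at 1 h. The difference between the times was not tested. The mean difference over all genes was -9.53 points at 30 min, and the untrained libraries of 1 h carry the antibody label macroH2A2. The paper states that the mH2A1 antibody of 30 min was replaced by another at 1 h, so time and antibody cannot be told apart. The part of each of these in the difference was not tested.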

How the results depend on the processing

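Of 950 recomputed log2 fold changes of members, 870 kept their direction and side of the threshold, 18 lost the call, 35 gained it and 27 changed sign, 24 of these when a library was left out. In shH2afy against shScr 6 to 10 members were called without each library in turn, and in trained mice labelled shH2afy against shScr 6 to 10 were, both 10 under DESeq2. In shH2afy2 against shScr DESeq2 called 3 members and no filter 9, and leaving out libraries called 0. In shH2afy against shH2afy2 DESeq2 called 2, no filter 10, the replicate block 10 (2237 genes in all, against 1557) and leaving out libraries 0 to 5, where same-numbered libraries share only a number (correlations -0.209, 0.522 and 0.47). The block also ended the call of Psmb9 in trained mice labelled shH2afy (9 called), and outside these comparisons it changed no call of a member. Over all genes, DESeq2 called 127 and no filter 327 in shH2afy2 against shScr, where the main fit called 0, and in intact mice 464 and 51, against 15. In shH2afy against shH2afy2 the median of all genes was 0.14 under DESeq2. In shH2afy against shScr 1146 to 2787 genes were called over these fits, and 947 to 2364 without each library.

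Signs changed without 1 library for Tapbp in shH2afy2 against shScr (-0.03 to 0.84), in trained against untrained shScr mice for H2-K1 (-0.11 to 0.60), H2-D1 (-0.07 to 0.56), B2m (-0.04 to 0.51) and Psmb9 (-0.07 to 0.72), in mice labelled shH2afy for H2-K1 (-0.24 to 0.02), H2-D1 (-0.21 to 0.01), B2m (-0.15 to 0.24), Tap1 (-0.21 to 0.10), Tap2 (-0.12 to 0.09) and Psmb9 (-0.25 to 0.04), in the interaction for B2m (-0.43 to 0.12), and in intact mice for H2-D1 (-0.15 to 0.11), Tap2 (-0.09 to 0.13), Psmb8 (-0.25 to 0.23) and H2-Q4 (-0.24 to 0.20). With the block, Tap2 (-0.01), Psmb8 (-0.04) and H2-Q4 (-0.02) changed sign in intact mice. None of these values was called, and the cause was not tested.

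Of 450 differences in cover 15 changed sign, none of them called. With domains under an FDR of 0.001 these were H2-T23 for mH2A1 at 30 min (-15.1 points), H2-Q4 for mH2A2 at 30 min (-5.18), and Tap2 (6.43) and Psmb8 (12.1) in mH2A1 against mH2A2. Over 2 kb around the start they were H2-K1 (3.50) for mH2A2 at 30 min, H2-Q4 (-23.2) and H2-T23 (3.33) for mH2A2 at 1 h, Tap1 (7.00), Tap2 (-2.63) and Psmb8 (-6.40) for mH2A1 at 6 h, and Tap2 (3.63) and H2-Q4 (-2.91) between antibodies. Relative to the library mean they were Psmb9 at 30 min (0.375) and Tap1 at 6 h (0.004) for mH2A1, and H2-T23 at 1 h for mH2A2 (0.023). The cover medians without the 2 libraries of 1 h were computed after the data were seen. With 2 or 3 mice a group, differences in cover could not reach p under 0.05. With 1 count added, the ratio of Psmb8 to Psmb5 differed by 4.76 (log2) and that of Psmb9 to Psmb6 by 4.45.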
